A study of Mus musculus with 2 samples.

Results

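The insulin-like growth factor (IGF) family was followed through the cell types of the mouse heart after myocardial infarction: the ligands Igf1 and Igf2, the receptors Igf1r and Igf2r, and the secreted binding proteins Igfbp3, Igfbp4, Igfbp5, Igfbp6 and Igfbp7. These 9 genes were taken from a list chosen with earlier results of these data known. All 9 were in both count tables, which share 21745 genes. Drop-seq counts mRNA molecules of single cells caught in droplets, each molecule carrying the barcode of its cell and a random tag of its own (UMI). It had been run on the hearts of wild-type male C57BL6/J mice aged 8 to 10 weeks. The MI library came from 1 heart whose left anterior descending coronary artery had been ligated, and the sham library from 4 hearts, pooled, whose suture had not been tightened. All hearts were collected 14 days after surgery. The submitted protocol also mentions a pressure gradient over an aortic constriction, and fixation and embedding of the hearts; how these steps bear on hearts ligated and used for Drop-seq is unclear. With 1 library per group there was no replicate, so no test between MI and sham was possible and no p-value is given. The 95% intervals below cover counting error of summed UMIs only. They leave out the variation between cells, between animals and between library preparations, so intervals that do not overlap can still rest on a few cells.

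IGF-1 and IGF-2 are small secreted proteins that act through the IGF-1 receptor, a tyrosine kinase that signals through insulin receptor substrates, PI3 kinase and Akt to growth and survival. The IGF-2 receptor, which also binds mannose 6-phosphate, carries lysosomal enzymes and takes up IGF-2 for degradation. The binding proteins hold IGFs in the extracellular space, lengthen or limit their access to the receptor, and are cut by proteases such as PAPP-A, which releases the ligand. In the heart, IGF-1 has long been studied as a survival and growth signal, and macrophages and fibroblasts are known sources of it after injury.

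The MI library held 33275336 UMIs in 8555 barcodes and the sham library 11307405 UMIs in 6337 barcodes, of which 8294 MI and 5969 sham cells were kept. Both tables listed 5 barcodes in common. Each kept cell was put into a class by a gate on marker genes, none of which was a member of the family. The gates held 3138 MI and 1805 sham fibroblasts, 3437 and 1375 macrophages or monocytes, 412 and 1971 endothelial cells, 111 and 130 mural cells (pericytes and smooth muscle), and 86 and 78 mesothelial cells of the epicardium. A further 25 MI and 74 sham cells were lymphatic endothelial, and 228 and 60 were T, NK or B lymphocytes. Cells of the mesothelial gate had medians of 109 fibroblast and 33.5 mesothelial marker UMIs in MI, and 15 and 14.5 in sham. The MI and sham cells of this gate differed in kind, as given with Igfbp3, so its ratios do not show changes within a cell type. A gate on a score is a range and not a type: over the 5 compared classes, 27 to 240 MI and 5 to 126 sham cells lay within 0.05 of the margin between gates. Cardiomyocytes, the muscle cells, were nearly absent at 4 MI and 37 sham cells, so the part of the family made by them was not measured here. Levels are the summed UMIs of a gene in a class, scaled to the total UMIs of that class (CPM), with exact Poisson intervals in parentheses. Lymphocytes served as a comparison level for free RNA in the droplets, since T, NK and B cells are not a known source of collagen. They carried 2481 and 2939 CPM of summed fibroblast markers in MI (T/NK and B cells), against 221 and 302 CPM in sham. Their endothelial markers went the other way, at 86.4 and 61.5 CPM in MI, against 1240.0 and 1336 CPM in sham, so for genes of endothelial cells it is uncertain what the sham lymphocyte level measures. How much of a member's RNA in lymphocytes was their own was not tested.

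In endothelial cells 5 members of the family were higher in MI than in sham, and in mural cells 4 were lower. A member counts as higher or lower here when its CPM differed at least 2-fold and it had at least 20 UMIs in both libraries together. Since the list was chosen with earlier results of these data known, the counts describe the list and test nothing. The endothelial count was 5 of 9 members higher in MI (Igf1, Igf2, Igf2r, Igfbp3 and Igfbp4), against 11.8% of all genes tested the same way, and 1 was lower (Igfbp6), against 14.6%. In mural cells 1 of the 8 members with enough UMIs was higher in MI (Igfbp7), against 15.8% of all genes, and 4 were lower (Igf2, Igfbp3, Igfbp4 and Igfbp5), against 21.8%; the intervals of the Igf1, Igf1r and Igf2r ratios included 0. Fibroblasts had 1 higher member (Igfbp3), against 13.6% of genes, and 2 lower ones (Igfbp4 and Igfbp6), against 20.1%. Macrophages had 2 higher members (Igf2r and Igfbp7), against 8.85% of genes, and 2 lower ones (Igf1r and Igfbp4), against 12.3%. Of the 7 members with enough UMIs in mesothelial cells, 1 was higher (Igfbp3), against 16.8% of genes, and 3 were lower (Igf2r, Igfbp5 and Igfbp6), against 13.6%. The median log2 ratio of the members was 1.21 in endothelial cells, -1.54 in mural, -0.65 in fibroblast, -0.22 in macrophage and -0.91 in mesothelial cells. The same medians over all genes tested were -0.03, -0.16, -0.20, -0.12 and 0.05. Marker RNA of other cell types also differed in these classes. In macrophages fibroblast markers summed to 1765 CPM in MI and 249 CPM in sham, with medians of 3 and 0 such UMIs a cell. Fibroblast markers summed to 3206 CPM in MI and 454 CPM in sham endothelial cells, 12459 and 1467 CPM in mural cells, and 18528 and 8394 CPM in mesothelial cells. Endothelial markers summed to 235 CPM in MI and 3292 CPM in sham mural cells. The part of this RNA in the ratios was not tested.

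**Figure D1:**
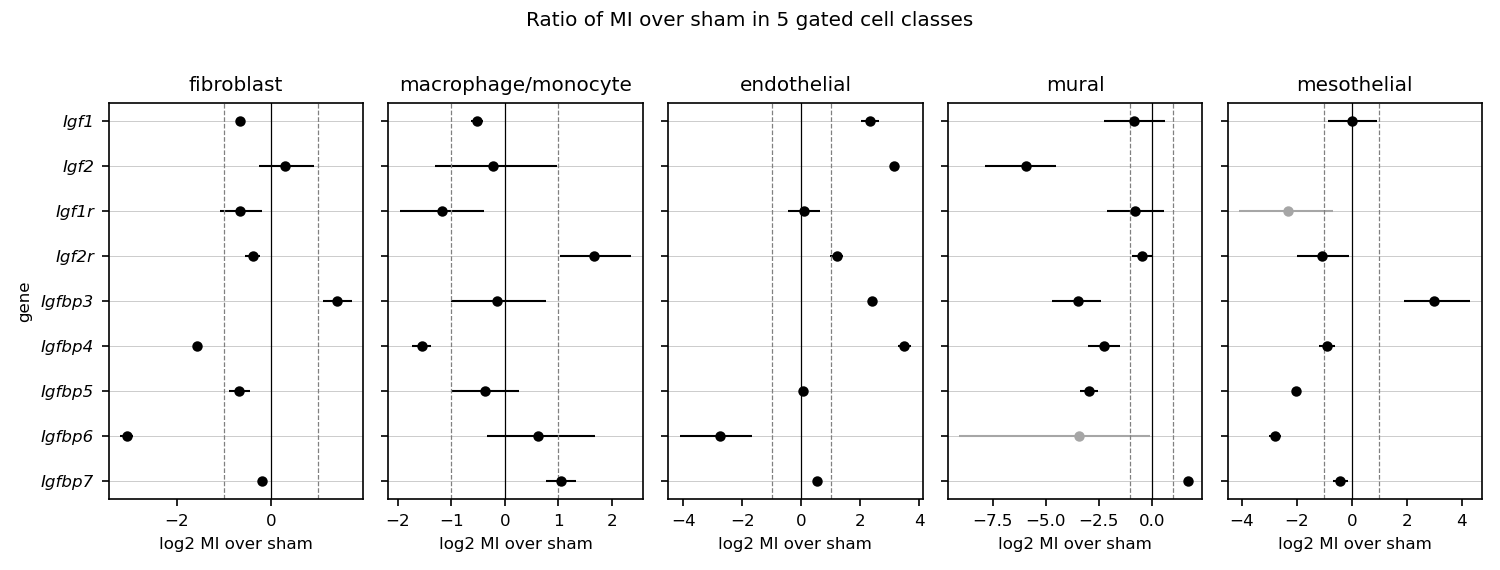
Log2 ratio of MI over sham for the 9 family members in 5 gated cell classes; each class has its own horizontal scale. Points are ratios of summed CPM, lines are 95% intervals of counting error, dashed lines mark a 2-fold difference and grey points have under 20 UMIs in both libraries together. Igf2 lies at 3.15 in endothelial and -5.93 in mural cells, and Igfbp6 lies below -2 in fibroblast, endothelial and mesothelial cells.

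Igf1, the ligand that binds the IGF-1 receptor most tightly, was carried by fibroblasts and macrophages in both conditions, and both classes held somewhat less of it in MI. Fibroblasts had 276 CPM (269-283) in MI against 437 CPM (413-461) in sham, and macrophages 308 CPM (295-322) in MI against 442 CPM (414-471) in sham. The intervals of MI and sham did not overlap in either class, but the log2 ratios of -0.66 (-0.75 to -0.57) in fibroblasts and -0.52 (-0.63 to -0.41) in macrophages were smaller than 2-fold. These classes together carried 65.9% (fibroblasts) and 26.8% (macrophages) of the Igf1 UMIs of the MI library, and 53.0% and 37.6% of those of the sham library. In MI the order ran from macrophages through fibroblasts, endothelial and mesothelial cells to lymphatic, mural and lymphocyte cells, where neighbours from mesothelial cells down did not differ beyond counting error. In sham the macrophage and fibroblast levels did not differ beyond counting error, with a log2 ratio of 0.02 (-0.10 to 0.14).

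In endothelial cells Igf1 went the other way, at 157 CPM (140.4-176) in MI against 31.2 CPM (25.9-37.4) in sham, a log2 ratio of 2.33 (2.02 to 2.65). By the sub-gates described with Igf2 below, the ratio was 2.04 (1.14 to 2.84) in capillary and 1.76 (0.55 to 3.18) in endocardial cells. In arterial cells it was 2.85 (0.86 to 5.96), on 28 MI and 2 sham UMIs. The activated gate differed, with a ratio of -0.11 (-1.04 to 0.98) on 128 MI and 10 sham UMIs. Igf1 UMIs were seen in 34.5% of MI and 4.36% of sham endothelial cells; with each cell thinned to 500 UMIs the shares were 6.80% and 1.12%, against 1.32% of MI and 0 of 60 sham lymphocytes. MI lymphocytes had 14.1 CPM of Igf1, on 5 UMIs. Fibroblast markers summed to 2481 CPM in MI T/NK cells, 2939 CPM in MI B cells and 3206 CPM in MI endothelial cells. The part of RNA from other cells in the endothelial Igf1 was not tested. In mural and mesothelial cells Igf1 was low and its MI and sham intervals overlapped: 15.5 CPM in MI and 28.1 CPM in sham mural cells, and 77.8 and 78.3 CPM in mesothelial cells.

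Among macrophages Igf1 depended strongly on the marker sub-gate. In MI the lipid-associated cells (Spp1, Gpnmb, Arg1, Fabp5, Trem2), a state absent from sham at 0 cells, had 480.2 CPM (457-505) over 1423 cells. The MHC class II gate had 57.6 CPM (46.1-71.1) in 795 MI cells and 321 CPM (285-361) in 597 sham cells, a log2 ratio of -2.48 (-2.84 to -2.13). Within MI the lipid-associated level thus stood above the MHC class II level by a log2 ratio of 3.06 (2.75 to 3.39). The resident gate (Lyve1, Timd4, Folr2, Cd163, Cbr2) had 373 CPM (275-494) in 72 MI cells and 524 CPM (480.5-570.2) in 610 sham cells, and MI monocytes had 67.9 CPM (37.1-114) in 119 cells. Resident, lipid-associated and MHC class II cells made up 2.09%, 41.4% and 23.1% of MI macrophages, against 44.4%, 0% and 43.4% of sham macrophages. Within the resident gate the MI over sham log2 ratio was -0.49 (-0.95 to -0.06). The class ratio of -0.52 joined sub-gates of unlike level and number. Outside the resident gate, a subset chosen after the values were seen, it was -0.26. The part of the sub-gate shares in the class ratio was not tested.

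Fibroblasts of the 2 libraries were almost fully in different sub-gates: 1743 of 1805 sham cells were in the resting gate (Pi16, Gsn, Clec3b, Scara5, Dpep1, Cd248) and 16 of 3138 MI cells were, while 1824 MI cells were in the injury matrix gate (Postn, Cthrc1, Tnc, Fn1, Comp) and 373 in the contractile gate (Acta2, Tagln, Cnn1, Myl9, Tpm2, Actg2). Igf1 was 249 CPM in contractile and 289.8 CPM in injury matrix cells of MI, and 437 CPM in resting cells of sham. The few resting cells of MI had 1227 CPM (943-1570.1), on 63 UMIs, 17 of them in 1 cell. Cycling MI fibroblasts, 586 cells with markers such as Mki67 and Top2a, had 164 CPM and the other MI fibroblasts 314 CPM, a log2 ratio of -0.94 (-1.05 to -0.83). Igf1 lies at chr10:87858265-87937042 on the plus strand (GENCODE vM21, GRCm38) and overlaps the antisense gene Igf1os.

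**Figure D2:**
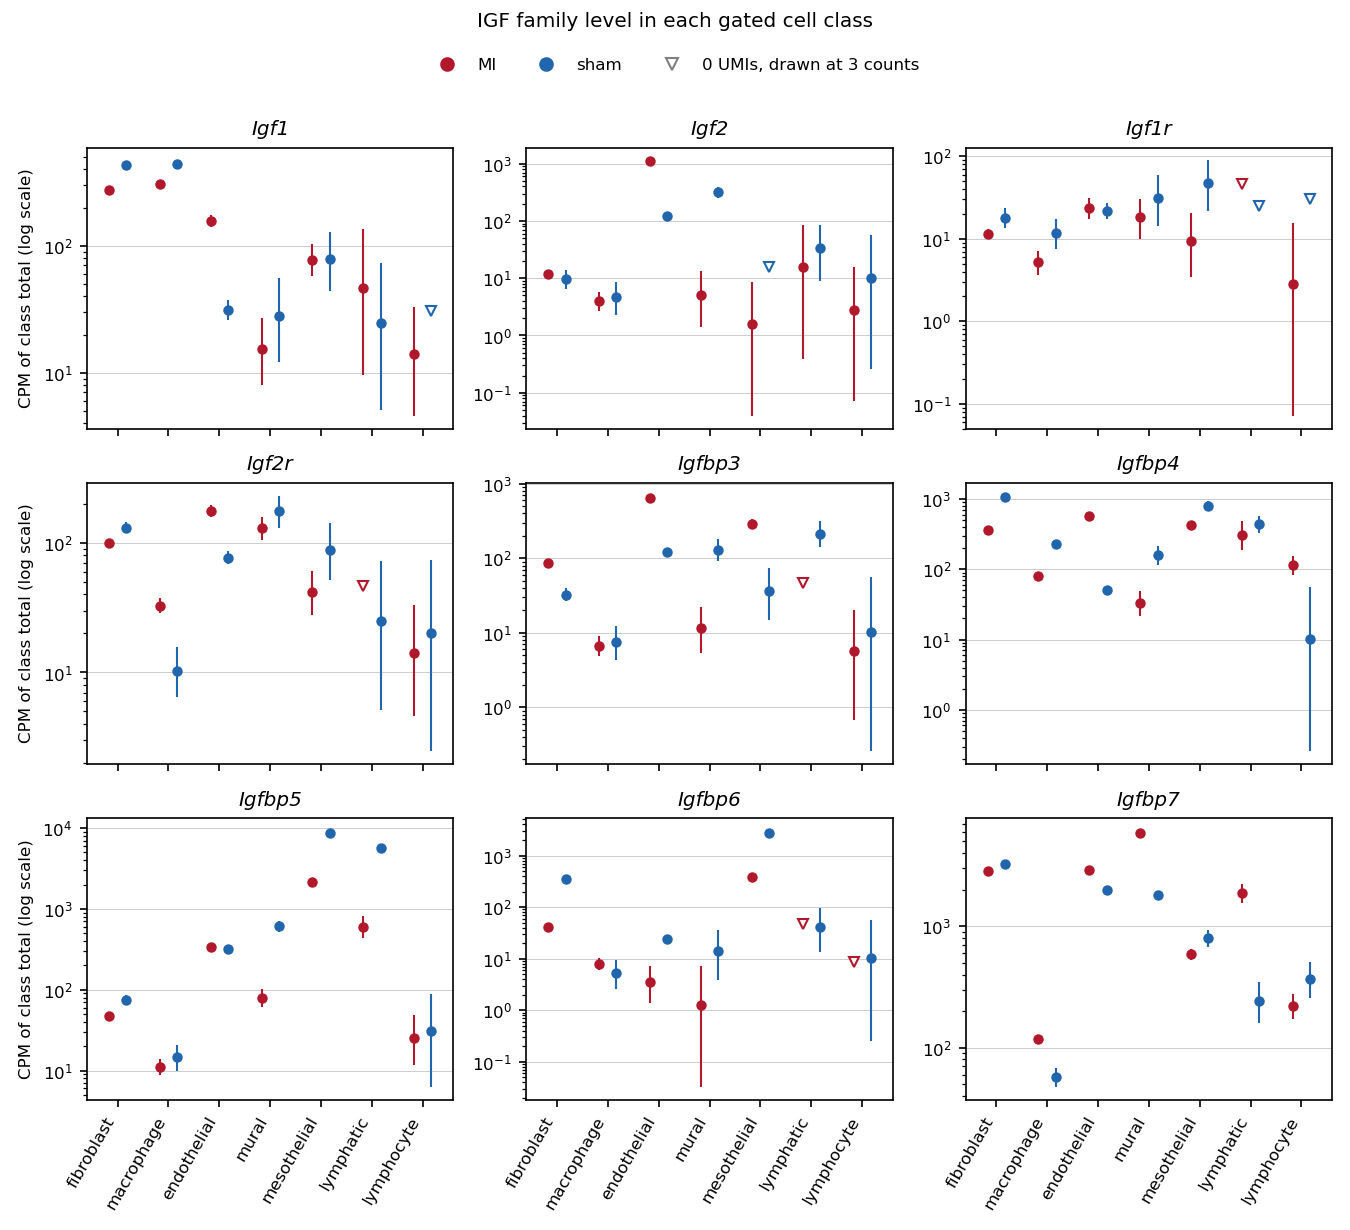
Level of each family member in 7 gated cell classes of the MI library (red, left) and the sham library (blue, right), as CPM of the class total on a log scale; each gene has its own scale. Points are summed CPM over all cells of a class, lines are 95% Poisson intervals and open triangles mark 0 UMIs, drawn at the level of 3 counts. Igf1 stands highest in fibroblasts and macrophages, Igf2 in endothelial cells of MI and mural cells of sham, and Igfbp5 and Igfbp6 in mesothelial cells.

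Igf2, the second ligand, which is imprinted and strongly made before birth, was found in few cells, and most of its UMIs were in endothelial cells. UMIs of Igf2 were seen in 280 MI and 262 sham barcodes, of which 108 in MI and 142 in sham were gated endothelial cells and 92 in MI and 28 in sham were fibroblasts. Endothelial cells carried 71.9% of the Igf2 UMIs of the MI library and 71.1% of those of the sham library. Endothelial cells had 1099 CPM (1054-1146) in MI against 124 CPM (113-135) in sham, a log2 ratio of 3.15 (3.01 to 3.30). A UMI of Igf2 was present in 26.2% of MI and 7.20% of sham endothelial cells, and in 18.2% and 3.55% of them at 500 UMIs a cell, against 0.439% of MI and 1.67% of sham lymphocytes before thinning. Median depth was 3506 UMIs in MI and 1340 UMIs in sham endothelial cells.

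Of the 4 endothelial sub-gates Igf2 was highest in the endocardial gate (Npr3, Hapln1, Cytl1, Tmem108, Cdh11), the cells that line the heart chambers. In MI this gate held 881 of the 2216 endothelial Igf2 UMIs, the activated gate 455, the arterial gate 1 and the capillary gate 0. The rest were in the 130 MI endothelial cells of no sub-gate. In sham the endocardial gate held 278 of 467 UMIs. Endocardial cells had 2634 CPM (2462-2813) in 58 MI cells and 1122 CPM (994-1261) in 109 sham cells, a log2 ratio of 1.23 (1.04 to 1.43). They were 14.1% of MI and 5.53% of sham endothelial cells. In the capillary gate no Igf2 UMI was seen in 40 MI cells, where 3 counts would be 22.3 CPM, and the 1604 sham cells had 29.0 CPM (23.4-35.6). Arterial cells had 1 UMI in 39 MI cells and 372 CPM (270.3-499) in 71 sham cells, a log2 ratio of -6.42 (-11.75 to -3.86). The activated gate (Plvap, Lrg1, Ackr1, Vcam1, Selp, Sele) had 696 CPM (634-763) in 145 MI cells and 106 CPM (34.4-247) in 26 sham cells, where all 5 UMIs were in 1 cell. A single Leiden cluster held all 58 MI and all 109 sham endocardial cells, among 178 MI and 150 sham endothelial cells. Its other MI endothelial cells included 50 of the activated gate and 69 of no sub-gate. Without this cluster the class ratio was -3.06, of opposite sign to the whole class. Leaving it out thus removed more than the endocardial gate, and this subset was chosen after the values were seen.

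In mural cells Igf2 was lower in MI, at 4 UMIs or 5.17 CPM (1.41-13.2), against 90 UMIs or 316 CPM (254-388) in sham. The log2 ratio was -5.93 (-7.84 to -4.53), and -6.12 over the Leiden cluster that held most mural cells of both libraries, 75 in MI and 124 in sham. The Igf2 level of sham mural cells stood above that of sham endothelial cells as a whole, 316 against 124 CPM. Fibroblasts had little Igf2, 11.7 CPM in MI and 9.53 CPM in sham with overlapping intervals, and 38 of the 225 MI UMIs were in 1 cell. Macrophages had 4.02 CPM in MI and 4.69 CPM in sham, and lymphocytes 2.82 and 10.1 CPM. Igf2 lies at chr7:142650766-142666816 on the minus strand and overlaps Gm49394, Mir483 and the antisense Igf2os; the sources do not say whether reads were counted by strand, so reads of these genes cannot be told apart.

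**Figure D3:**
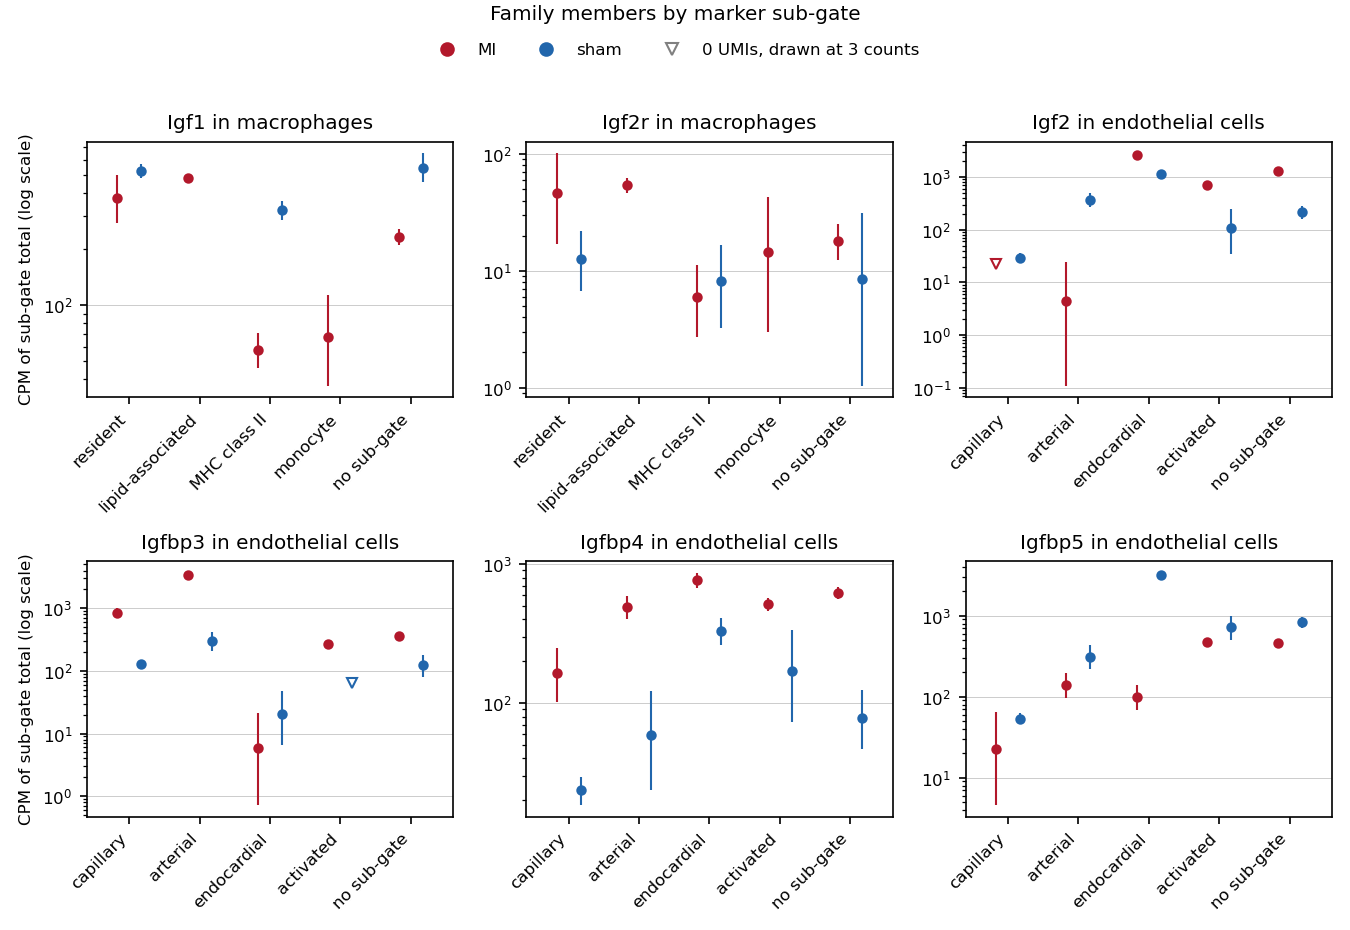
Igf1 and Igf2r in macrophage sub-gates and Igf2, Igfbp3, Igfbp4 and Igfbp5 in endothelial sub-gates of the MI library (red, left) and the sham library (blue, right), as CPM of the sub-gate total on a log scale. Points are summed CPM, lines are 95% Poisson intervals, open triangles mark 0 UMIs drawn at 3 counts, and sub-gates with under 10 cells of a library are not drawn. Igf1 is 480.2 CPM in lipid-associated and 57.6 CPM in MHC class II cells of MI, and Igf2 is 2634 CPM in MI and 1122 CPM in sham endocardial cells.

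Igf1r, the signalling receptor of both ligands, was low in every class, with 370 UMIs in the MI and 207 in the sham library. Its level was 23.3 CPM (17.1-31.0) in MI against 21.7 CPM (17.3-26.9) in sham for endothelial cells, 11.5 CPM (10.1-13.2) in MI against 18.1 CPM (13.6-23.5) in sham for fibroblasts and 5.17 CPM (3.62-7.16) in MI against 11.7 CPM (7.59-17.3) in sham for macrophages. Fibroblasts and macrophages were lower in MI, with log2 ratios of -0.65 (-1.08 to -0.19) and -1.18 (-1.96 to -0.38), and the endothelial ratio of 0.10 (-0.45 to 0.64) had an interval that included 0. Neighbouring classes in the order of levels did not differ beyond counting error in MI or in sham, among classes with a UMI. Classes further apart could differ: in MI the endothelial interval lay above those of fibroblasts and macrophages, while in sham it overlapped that of fibroblasts. Thinned to 500 UMIs a cell, 0.175% of MI and 0.80% of sham macrophages had a UMI of Igf1r; the macrophage ratio rested on 36 MI and 25 sham UMIs. Its locus is chr7:67952827-68233668 on the plus strand.

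Igf2r, the uptake receptor of IGF-2 and of lysosomal enzymes, was higher in MI in macrophages and endothelial cells. Macrophages had 32.8 CPM (28.6-37.3) in MI against 10.3 CPM (6.47-15.6) in sham, a log2 ratio of 1.67 (1.03 to 2.37), and the intervals did not overlap. Lipid-associated cells led in MI, at 54.2 CPM (46.5-62.8), while MHC class II cells had 5.96 CPM (2.73-11.3) in MI and 8.12 CPM (3.26-16.7) in sham. Resident cells had 46.6 CPM (17.1-101) in MI, on 6 UMIs, and 12.7 CPM (6.77-21.7) in sham. Lymphocytes had 14.1 CPM in MI and 20.3 CPM in sham, on 5 and 2 UMIs; the sham macrophage level was no higher than this, and in MI the interval of the macrophage over lymphocyte log2 ratio was -0.03 to 2.85.

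Endothelial cells had 177 CPM (159-196) in MI against 76.8 CPM (68.2-86.1) in sham of Igf2r, a log2 ratio of 1.21 (0.98 to 1.43). Without the Leiden cluster that held the endocardial cells, and other endothelial cells with them, the ratio was 0.06. Endocardial cells carried 245 CPM in MI and 157 CPM in sham, against 52.1 and 72.1 CPM in capillary cells. Within sham the endocardial over capillary log2 ratio was 1.13 (0.60 to 1.62), and within MI 2.23 (1.13 to 3.59). The endocardial gate thus had the highest Igf2 and the highest Igf2r of the 4 endothelial sub-gates in each library, although in sham its Igf2r interval overlapped that of the activated gate, which had 5 UMIs. In fibroblasts Igf2r was 101 CPM in MI and 132 CPM in sham, in mural cells 129 and 175 CPM, and in mesothelial cells 42.0 and 88.8 CPM, the last on 27 and 17 UMIs. Igf2r spans chr17:12682406-12769664 on the minus strand and overlaps the antisense gene Airn.

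Igfbp3, the main carrier of IGFs in blood plasma, was higher in MI in fibroblasts, endothelial and mesothelial cells and lower in mural cells. Fibroblasts had 86.3 CPM (82.2-90.6) in MI against 32.5 CPM (26.5-39.6) in sham, a log2 ratio of 1.41 (1.11 to 1.71). Few fibroblasts carried it: 409 of 3138 in MI and 55 of 1805 in sham, or 2.61% and 1.44% when thinned to 500 UMIs. With the thinned counts the ratio was 0.72, below 2-fold; the median depth of fibroblasts was 5190.5 UMIs in MI and 1491 in sham. In MI, contractile fibroblasts had 167 CPM and injury matrix fibroblasts 60.1 CPM, a log2 ratio of 1.47 (1.30 to 1.64).

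Endothelial cells had 655 CPM (620.3-692) in MI against 123 CPM (112-135) in sham of Igfbp3, a log2 ratio of 2.41 (2.26 to 2.56). The MI and sham cells of these sub-gates lay mostly in different Leiden clusters: 34 of 39 MI arterial and 26 of 40 MI capillary cells were in a cluster that held 1 sham endothelial cell, while 59 of 71 sham arterial and 1502 of 1604 sham capillary cells were in a cluster that held 16 MI endothelial cells. The arterial gate (Sema3g, Hey1, Stmn2, Fbln5, Gja4, Gja5) led, with 3432 CPM (3196-3679.8) in 39 MI cells and 296 CPM (206-412) in 71 sham cells, a log2 ratio of 3.54 (3.05 to 4.07). A single MI arterial cell held 278 of the 788 UMIs, and without it the level was 2684 CPM. Capillary cells had 849 CPM (700.4-1020.0) in MI and 127 CPM (115-140.1) in sham, a log2 ratio of 2.74 (2.43 to 3.05). Endocardial cells had 5.98 CPM in MI and 20.2 CPM in sham, the reverse of Igf2. The endocardial over arterial log2 ratio in MI was -9.16 (-12.21 to -7.31) for Igfbp3 and 9.24 (6.76 to 14.55) for Igf2. Within sham these ratios were -3.87 (-5.58 to -2.52) and 1.59 (1.13 to 2.09).

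Mesothelial cells had 289.5 CPM (249-334) in MI against 36.6 CPM (14.7-75.3) in sham, a log2 ratio of 2.99 (1.91 to 4.32), on 186 MI and 7 sham UMIs. These cells differed in kind between the libraries: 81 of the 86 MI cells lay in the Leiden cluster that also held 577 MI fibroblasts, while 74 of the 78 sham cells lay in another, and the median cell carried 109 fibroblast marker UMIs in MI and 15 in sham. Mural cells had 11.6 CPM (5.32-22.1) in MI against 129.9 CPM (91.4-179) in sham, a log2 ratio of -3.48 (-4.72 to -2.40) on 9 and 37 UMIs. Macrophages had 6.75 CPM in MI and 7.51 CPM in sham, near the lymphocyte level of 5.64 and 10.1 CPM. Igfbp3 spans chr11:7206086-7213923 on the minus strand.

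Igfbp4, a binding protein that blocks IGF action and is cut by PAPP-A, was lower in MI in fibroblasts, macrophages and mural cells and higher in endothelial cells. Fibroblasts, which held 73.1% of its UMIs in the MI and 75.6% in the sham library, had 361 CPM (353-369.8) in MI against 1076 CPM (1039-1113) in sham. The log2 ratio was -1.57 (-1.63 to -1.51), and at 500 UMIs a cell 16.2% of MI and 40.6% of sham fibroblasts had a UMI. Within MI the level was 194 CPM in contractile and 426 CPM in injury matrix fibroblasts, and 163 CPM in cycling and 428 CPM in other fibroblasts. The 16 resting fibroblasts of MI had 1870.0 CPM (1515-2284) and the 1743 of sham 1082 CPM (1045-1120.3).

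Macrophages had 79.3 CPM (72.8-86.2) in MI against 232 CPM (212-254) in sham of Igfbp4, a log2 ratio of -1.55 (-1.73 to -1.37). The MI level was below that of MI lymphocytes, 116 CPM on 41 UMIs, while sham lymphocytes had 1 UMI. Igfbp4 was the 1 lymphocyte member at least 2-fold higher in MI of 2 with enough UMIs, against 9.45% of genes, and none was lower, against 11.4%. How much of the lymphocyte Igfbp4 was free RNA was not tested. Within sham, resident macrophages had 279 CPM and MHC class II macrophages 169 CPM.

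Endothelial cells had 565 CPM (533-599) in MI against 50.0 CPM (43.2-57.7) in sham of Igfbp4, a log2 ratio of 3.50 (3.27 to 3.73), and each of the 4 sub-gates was higher in MI with intervals that did not overlap. The levels in MI and sham were 765 and 331 CPM for endocardial, 488 and 59.2 CPM for arterial, 164 and 23.6 CPM for capillary and 516 and 169 CPM for activated cells. The ratio without the cluster that held the endocardial cells was 3.73, and with the lymphocyte CPM subtracted it was 3.49. In mural cells Igfbp4 was 33.6 CPM in MI and 158 CPM in sham, a log2 ratio of -2.23 (-2.99 to -1.50), and in mesothelial cells 420.3 and 789 CPM, a ratio of -0.91 (-1.20 to -0.61). The gene lies at chr11:99041244-99054392 on the plus strand.

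Igf1, Igf2, Igfbp3 and Igfbp4 had the 4 largest ratios among the members in MI endothelial cells, and the 250 bases before their start sites are shown for that reason, from RefSeq on GRCm38.p6. Bases in capitals match a motif searched in all 32851 promoter windows of the same length. GGGCGG (a GC box), TGANTCA and TGTTTAC (a forkhead site) were sought on both strands, and the TATA forms TATAAA and TATATA on the strand of the gene. TGANTCA takes any middle base and is looser than the AP-1 site, whose middle base is C or G. The windows are chr10:87860861-87861110 on the plus strand for Igf1, chr7:142657497-142657746 on the minus strand for Igf2, chr11:7213924-7214173 on the minus strand for Igfbp3 and chr11:99040994-99041243 on the plus strand for Igfbp4. Those of Igf1 and Igf2 lie inside the genes as placed by GENCODE, before start sites within the gene.
Igf1: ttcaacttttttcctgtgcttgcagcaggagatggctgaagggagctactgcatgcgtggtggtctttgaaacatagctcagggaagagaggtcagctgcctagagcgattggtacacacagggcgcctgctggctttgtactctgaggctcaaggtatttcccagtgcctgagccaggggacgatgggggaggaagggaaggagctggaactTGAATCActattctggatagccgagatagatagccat
Igf2: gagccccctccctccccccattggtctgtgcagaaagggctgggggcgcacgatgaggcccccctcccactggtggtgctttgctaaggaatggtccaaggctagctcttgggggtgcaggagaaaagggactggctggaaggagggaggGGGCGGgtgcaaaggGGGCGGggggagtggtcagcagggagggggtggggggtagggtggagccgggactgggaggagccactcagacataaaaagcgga
Igfbp3: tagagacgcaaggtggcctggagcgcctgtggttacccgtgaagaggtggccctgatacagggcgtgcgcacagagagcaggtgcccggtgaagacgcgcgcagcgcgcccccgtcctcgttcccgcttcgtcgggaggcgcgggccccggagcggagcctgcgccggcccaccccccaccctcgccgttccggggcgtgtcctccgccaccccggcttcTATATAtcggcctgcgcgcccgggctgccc
Igfbp4: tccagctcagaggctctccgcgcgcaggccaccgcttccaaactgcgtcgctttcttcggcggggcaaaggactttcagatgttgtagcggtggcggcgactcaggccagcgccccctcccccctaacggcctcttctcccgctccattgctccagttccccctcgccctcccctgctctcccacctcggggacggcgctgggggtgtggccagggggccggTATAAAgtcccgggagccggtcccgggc
Igfbp3 and Igfbp4 each hold a TATA form, whose first base lies 30 and 28 bases before the start site; TATATA occurs in 5.25% and TATAAA in 7.59% of all windows. The Igf2 window is 1 of 4 that RefSeq lists for the gene and the one with most matches, holding GGGCGG 2 times, against 0, 0 and 1 times in the other windows; the motif is found in 32.7% of all windows. These counts do not show which start site was used. The Igf1 window holds TGANTCA 1 time, as TGAATCA, which is not the AP-1 site itself. The loose form is found in 6.75% of all windows. TGTTTAC, in 3.17% of windows, is in none of these 4. A match is a run of letters in the window and does not show that a factor bound there.

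Igfbp5, a binding protein that also attaches to the matrix, was highest in mesothelial and lymphatic endothelial cells, and it was lower in MI in mesothelial and mural cells. Mesothelial cells had 2142 CPM (2030.2-2258) in MI against 8717 CPM (8304-9146) in sham, a log2 ratio of -2.03 (-2.13 to -1.92), and carried 36.1% of the Igfbp5 UMIs of the MI and 38.6% of the sham library. Even at 500 UMIs a cell, 48.8% of MI and 91.0% of sham mesothelial cells had a UMI. As with Igfbp3, the mesothelial cells compared here differed in kind between the libraries, so the ratio does not show a change within a cell type. Mural cells had 78.9 CPM (60.3-101) in MI against 611 CPM (523-709) in sham, a log2 ratio of -2.95 (-3.40 to -2.52), and -3.01 over the cluster shared by both libraries. Lymphatic endothelial cells, too few in MI to be compared, had 39 UMIs in 25 MI cells, 32 of them in 1 cell, against 5676 CPM (5259-6117) in 74 sham cells.

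In endothelial cells as a whole Igfbp5 stood at 337 CPM (312-363) in MI against 321 CPM (303-339) in sham, with a log2 ratio of 0.07 (-0.07 to 0.21) whose interval included 0, but the sub-gates differed. Endocardial cells had 98.6 CPM (67.9-139) in MI and 3163 CPM (2945-3392) in sham, a log2 ratio of -5.00 (-5.55 to -4.50). Activated cells had 469.8 CPM (419-525) in MI and 719.5 CPM (498-1005) in sham, a log2 ratio of -0.61 (-1.13 to -0.06), and arterial cells 139 CPM in MI and 313 CPM in sham, a ratio of -1.17 (-1.90 to -0.44). Capillary cells had 22.3 CPM in MI and 53.6 CPM in sham, a ratio of -1.26 (-3.55 to 0.31), so all 4 sub-gates had lower values in MI. Without the cluster that held the endocardial cells the class ratio was 2.59. The sub-gate ratios above include cells of that cluster, among them 50 of the 145 MI activated cells. Capillary cells, the sub-gate of lowest Igfbp5 in both libraries, were 9.71% of MI and 81.4% of sham endothelial cells. Cells of no sub-gate were 31.6% and 8.17%. The part of these shares in the ratio of 2.59 was not tested. In fibroblasts Igfbp5 was 46.9 CPM (43.9-50.1) in MI against 74.6 CPM (65.2-85.0) in sham, a ratio of -0.67 (-0.88 to -0.45), which changed sign with classes taken from clusters (0.43) and with thinned counts (0.12). MI contractile fibroblasts had 9.05 CPM and injury matrix fibroblasts 54.1 CPM, a log2 ratio of -2.58 (-3.21 to -2.01), the reverse of Igfbp3. The gene lies at chr1:72857932-72874884 on the minus strand.

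Igfbp6, which prefers IGF-2 over IGF-1, was highest in mesothelial cells and next in fibroblasts among the classes, and was lower in MI in both. Fibroblasts had 42.0 CPM in MI, on 804 UMIs, against 351 CPM (330.4-373) in sham, a log2 ratio of -3.06 (-3.20 to -2.93), and mesothelial cells 389 CPM (342-440.5) in MI against 2716 CPM (2488-2959.8) in sham, a ratio of -2.80 (-3.03 to -2.58). At 500 UMIs a cell 1.66% of MI and 14.1% of sham fibroblasts had a UMI, and 15.1% and 64.1% of mesothelial cells, against 0 of 228 MI and 0 of 60 sham lymphocytes. The mesothelial ratio again compared cells that differed in kind between the libraries. MI injury matrix and contractile fibroblasts had 39.6 and 42.1 CPM, and the resting cells had 214 CPM (107-383) in MI and 357 CPM (336-379) in sham. In endothelial cells the level was 3.47 CPM (1.40-7.15) in MI against 23.6 CPM (18.9-29.0) in sham, on 7 MI and 89 sham UMIs, of which endocardial cells held 2 and 49. The endocardial level was 5.98 CPM in MI and 198 CPM in sham. Endocardial cells of MI thus had less Igfbp5 and less Igfbp6 and more Igf2 than those of sham, with log2 ratios of -5.00 (-5.55 to -4.50), -5.05 (-8.13 to -3.12) and 1.23 (1.04 to 1.43). Igfbp6 spans chr15:102144362-102149511 on the plus strand.

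Igfbp7, a distant family member that binds IGFs weakly and is abundant in vessels, was seen in most fibroblasts and endothelial cells, with 72027 UMIs in the MI and 21074 in the sham library. Fibroblasts had 2847 CPM (2823-2871) in MI against 3268 CPM (3205-3333) in sham, a log2 ratio of -0.20 (-0.23 to -0.17), and 96.4% of MI and 94.1% of sham fibroblasts had a UMI. Mural cells had 5896 CPM (5727-6070.1) in MI against 1808 CPM (1655-1971) in sham, with a log2 ratio of 1.71 (1.57 to 1.84). Within the shared mural cluster the ratio was 1.79. Endothelial cells had 2888 CPM (2814-2963) in MI against 2005 CPM (1961-2051) in sham, a log2 ratio of 0.53 (0.48 to 0.58). Endocardial cells had 1166 CPM in MI and 480.1 CPM in sham, capillary cells 4603 and 2191 CPM, and arterial cells 4629 and 1936 CPM. In macrophages the level of 118 CPM in MI and 57.3 CPM in sham was below the 219.9 and 365 CPM of lymphocytes. The macrophage ratio was 1.05 (0.77 to 1.33), and -0.19 with doublets kept. Sham lymphocytes held more endothelial marker RNA than sham macrophages, which had 184 CPM, and the part of RNA from other cells in the Igfbp7 of either class was not tested. Igfbp7 spans chr5:77349240-77408041 on the minus strand and overlaps the antisense genes Polr2b and Gm34648.

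**Figure D4:**
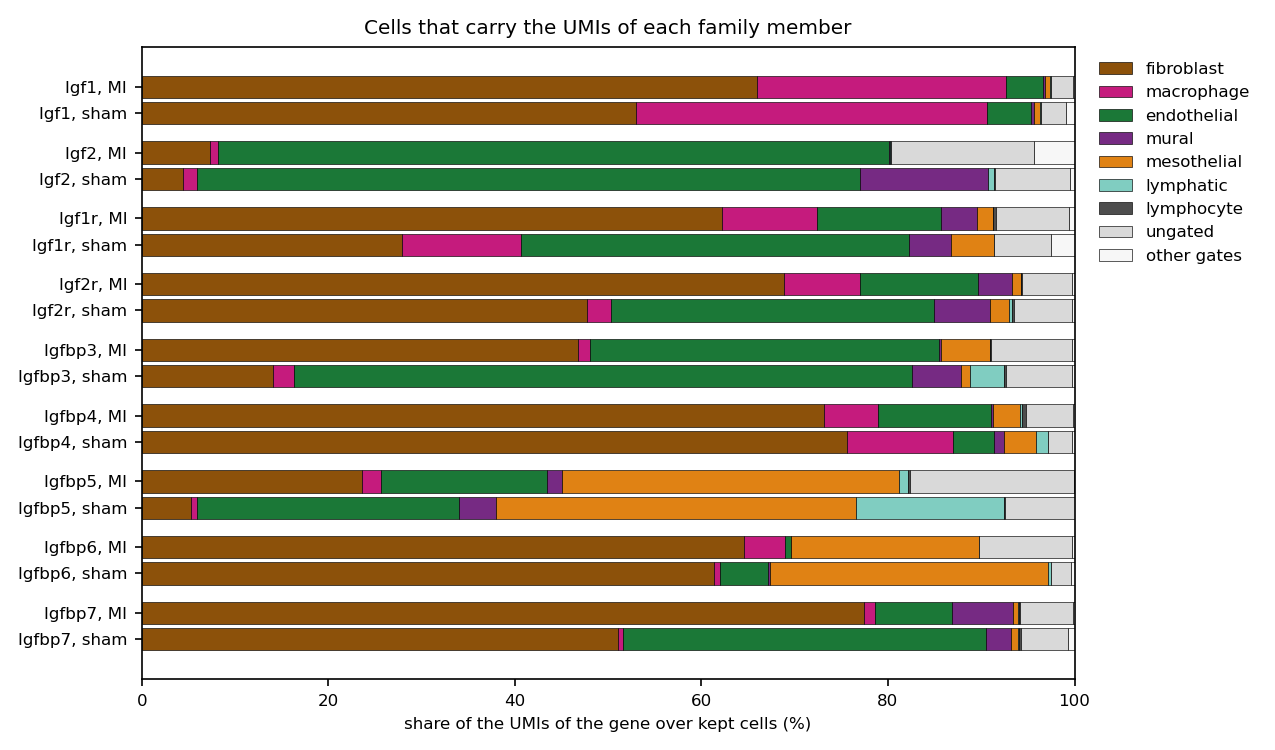
Share of all UMIs of each family member, in percent of its UMIs over kept cells, that each gated class carried in the MI library (upper bar of a pair) and the sham library (lower bar). The shares depend on how many cells of a class were captured and on the depth of these cells. Endothelial cells carried 71.9% of Igf2 UMIs in MI and 71.1% in sham although they were 4.97% and 33.0% of kept cells.

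As senders, then, fibroblasts and macrophages carried the Igf1 of the captured cells and endothelial cells the Igf2, in MI as in sham. Endothelial cells were 4.97% of MI and 33.0% of sham kept cells, and fibroblasts 37.8% and 30.2%. Median depth was 5190.5 UMIs in MI and 1491 UMIs in sham fibroblasts, and 3506 and 1340 UMIs in endothelial cells. The shares below thus move with capture and depth, and are not set against the share of all UMIs in a class. A large share therefore does not show that the class had a high level of the gene. As receivers, fibroblasts held 62.3% of Igf1r UMIs in MI and 27.9% in sham, and endothelial cells 13.2% and 41.6%. The Igf1r level of fibroblasts was nevertheless lower in MI, at 11.5 CPM against 18.1 CPM in sham. Endothelial cells had 23.3 CPM in MI and 21.7 CPM in sham. Igf2r UMIs were 68.8% and 47.7% in fibroblasts and 12.7% and 34.6% in endothelial cells. Of the binding proteins, Igfbp4, Igfbp6 and Igfbp7 UMIs were mostly fibroblast RNA in MI, with shares of 73.1%, 64.6% and 77.5%, and Igfbp3 UMIs were split between fibroblasts (46.8%) and endothelial cells (37.4%). RNA of a ligand and of a receptor in 2 classes does not show that the protein passed between them.

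Of the 9 listed proteases of binding proteins and their inhibitors, all with enough UMIs in fibroblasts, 2 were at least 2-fold higher in MI, against 13.6% of all genes, and 2 lower, against 20.1%. The counts of the other classes below stand against the shares over all genes given with the members: 11.8% higher and 14.6% lower in endothelial, 16.8% and 13.6% in mesothelial, 15.8% and 21.8% in mural and 8.85% and 12.3% in macrophage cells. Pappa, the protease of Igfbp4, had 79.2 CPM in MI and 10.9 CPM in sham, a log2 ratio of 2.87 (2.37 to 3.41). Adam12, a metalloprotease that cuts Igfbp3 and Igfbp5, had 56.8 CPM in MI and 2.63 CPM in sham, a ratio of 4.43 (3.45 to 5.65), and the serine protease Htra3 43.0 CPM in MI and 1065 CPM in sham, a ratio of -4.63 (-4.74 to -4.52). Plau, the urokinase, was the other lower gene, at 11.4 CPM in MI and 23.7 CPM in sham. In endothelial cells 2 of the 6 list genes with enough UMIs were higher, Htra1, a serine protease that cuts binding proteins, at 132 CPM in MI and 31.0 CPM in sham, and Adam12 at 9.92 CPM in MI and 0.794 CPM in sham; none was lower, and Stc1, a PAPP-A inhibitor, had 19.3 CPM in MI and 38.1 CPM in sham. In mesothelial cells Pappa and Adam12 were the 2 higher genes of 4, with 71.6 CPM in MI and 10.4 CPM in sham and 52.9 CPM in MI and 5.22 CPM in sham. In mural cells Adam12 and Plau were the 2 higher genes of 5, with 45 and 39 UMIs in MI and 0 in sham, so that both were higher by a log2 value of at least 2.47 and 2.26 against a floor of 3 counts in sham. Macrophages had 1 higher and 1 lower gene of 4, Htra1 at 5.75 CPM in MI and 0.939 CPM in sham, which is 40 and 2 UMIs, and Plau at 13.1 CPM in MI and 38.5 CPM in sham.

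Of the 19 genes listed as signalling below the receptor, 1 was higher and 4 were lower in MI fibroblasts, 2 and 1 of 18 in macrophages, 0 and 2 of 16 in endothelial cells, and 0 and 3 of 12 in mural and likewise in mesothelial cells. The fibroblast and mural shares of lower genes were near the 20.1% and 21.8% of all genes, and with lists this small no count is read as particular to the list. Foxo1, a transcription factor that Akt keeps out of the nucleus, was lower in fibroblasts at 15.6 CPM in MI and 80.2 CPM in sham, a log2 ratio of -2.37 (-2.62 to -2.12), and in macrophages at 11.8 CPM in MI and 24.4 CPM in sham and mural cells at 5.17 CPM in MI and 63.2 CPM in sham, the last on 4 and 18 UMIs. Grb14, an adaptor that restrains the insulin receptor, had 40.6 CPM in MI and 7.23 CPM in sham in fibroblasts, a ratio of 2.49 (1.88 to 3.17), and the receptor substrate Irs2 had 9.50 CPM in MI and 23.0 CPM in sham, a ratio of -1.28 (-1.68 to -0.86). Irs1 and Tsc1, named after their values were seen, were the other lower fibroblast genes, at -1.05 and -1.06 on the log2 scale. In endothelial cells the lower genes were Foxo3 at 11.4 CPM in MI and 24.6 CPM in sham and Akt2 at 4.96 CPM in MI and 13.0 CPM in sham, while mural cells were lower in Pik3ca at 67.2 CPM in MI and 175 CPM in sham and Grb2 at 59.5 CPM in MI and 126 CPM in sham. Mesothelial cells were lower in Akt2 at 38.9 CPM in MI and 141 CPM in sham, Foxo3 at 20.2 CPM in MI and 73.1 CPM in sham and Pik3r1 at 38.9 CPM in MI and 94.0 CPM in sham. The higher macrophage genes, named after their values were seen, were Grb14 on 22 MI and 1 sham UMIs and Grb10 on 40 and 6. Of 8 further family members, 6 were in both tables and only the insulin receptor Insr had enough UMIs; it was at least 2-fold higher in endothelial cells alone of the 3 classes where it was counted, at 44.6 CPM in MI and 17.2 CPM in sham, a log2 ratio of 1.38 (0.90 to 1.86).

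H19, the non-coding gene beside Igf2 that shares its imprinting control, was higher in MI in fibroblasts, macrophages and endothelial cells. It had 1991 CPM in MI and 151 CPM in sham in endothelial cells, a log2 ratio of 3.72 (3.59 to 3.85), beside an Igf2 ratio of 3.15 in the same cells. In fibroblasts H19 had 322 CPM in MI and 4.60 CPM in sham, a ratio of 6.13 (5.38 to 7.00), where Igf2 had 11.7 and 9.53 CPM and a ratio whose interval included 0. In macrophages it had 22.6 CPM in MI and 3.29 CPM in sham, on 157 and 7 UMIs, beside the macrophages' 1765 and 249 CPM of fibroblast markers, whose part in it was not tested, and in mural cells 18.1 CPM in MI and 21.1 CPM in sham, with an interval of the ratio that included 0. Of the mRNA-binding proteins named for Igf2, Igf2bp2 had 11.7 CPM in MI and 9.53 CPM in sham in fibroblasts and Igf2bp1 1.77 CPM in MI and 0.658 CPM in sham, on 34 MI and 2 sham UMIs.

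Genes of most similar pattern were sought over 12 profiles (6 classes in 2 libraries, which share cells, depth and library), among 11709 genes with at least 100 UMIs, by Pearson r of log2(CPM + 1), given as a description. They were Lamp2, Pla2g4a, Tiam1, Nrip1 and Tfe3 for Igf1 (r from 0.89 to 0.94), Tmem44, Pgm5, Klhl3, Papola and Eva1a for Igf2 (0.92 to 0.93), Zfp105, Gps1, Tmem63b, Cryzl1 and Tfcp2 for Igf1r (0.95 to 0.97) and Tmem110, Gnas, Usp47, Runx1t1 and Htra1 for Igf2r (0.92 to 0.97). For the binding proteins they were S100a16, Heg1, Arpc1a, Plscr2 and Cda for Igfbp3 (0.89 to 0.91), Rsad1, Ptprd, Cryz, Pld1 and Rc3h2 for Igfbp4 (0.88 to 0.92), Neu3, Mpp5, Cldn15, Syne2 and Thsd4 for Igfbp5 (0.91 to 0.95), C3, Sema3c, Wnt9a, Fads6 and Efemp1 for Igfbp6 (0.94 to 0.95) and Gnas, Eva1b, Tmem110, Cnn3 and Ppap2a for Igfbp7 (0.94 to 0.96). With 12 profiles and this many genes searched, high values of r arise readily.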

How the data were processed

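The authors deposited 1 table of unnormalised UMI counts for MI and 1 for sham, with genes in rows and barcodes in columns. Per the submitters' processing notes the build was mm10 and Seurat was used, with no role given; the aligner, the counting program and its use of strand are not known here. The 9 members and all lists were chosen with earlier results of these data known.

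Cells were kept that had 200 genes or more and no more than 25% mitochondrial UMIs, and doublets called with scrublet (scanpy 1.11.5) were removed, 147 in MI and 334 in sham. Every barcode already had at least 500 genes. A class needed a relative marker score of at least 0.2, a margin of 0.1 and 2 markers, a scoring set after marker values, but not the members, had been seen. Leiden clusters (resolution 0.8, 2000 variable genes without the members, 30 components, 20 neighbours) checked the gates. Ratios are of summed CPM with exact binomial intervals, and shares have Clopper-Pearson intervals. Thinning to 500 UMIs left out 0 cells. The step that computes ratios was tested on simulated data. All members were named, with, per pathway list and class, the 3 genes whose interval bound lay farthest from 0, and 5 genes of highest likeness per member. Gene positions are from GENCODE vM21. Python 3.11.15 was used with numpy 2.4.6, scipy 1.17.1 and pandas 2.3.3. Fewer UMIs in a class limit precision: intervals widen in mural and mesothelial cells.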

Additional observations from a re-analysis of the deposited data

Results flagged for a closer look

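These members had ratios of MI over sham that were at least 2-fold away from equal in opposite directions in different cell classes. The differences between classes were not tested, since each condition had 1 library. Igf2 had a log2 ratio of 3.15 in endothelial and -5.93 in mural cells. Igf2r had 1.67 in macrophages and 1.21 in endothelial cells, against -1.08 in mesothelial cells. Igfbp3 had 1.41 in fibroblasts, 2.41 in endothelial and 2.99 in mesothelial cells, against -3.48 in mural cells. Igfbp4 had 3.50 in endothelial cells, against -1.57 in fibroblasts, -1.55 in macrophages and -2.23 in mural cells.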

How the results depend on the processing

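Of the 22 ratios at least 2-fold away from equal, 20 kept their direction under each alternative that gave a value, and 17 stayed at least 2-fold away from equal, the reversed Igf2 value below among them. The exceptions in direction were Igfbp7 in macrophages, at -0.19 with doublets kept, and Igf2 in endothelial cells. The latter was at -3.06 without the cluster that held the endocardial cells and other endothelial cells. Besides Igfbp7 in macrophages, the ratios under 2-fold in at least 1 alternative were Igfbp3 in fibroblasts (0.72 to 1.85), Igf2r in endothelial cells (0.06 to 1.53), Igfbp6 in endothelial cells (-3.09 to -0.48) and Igf2r in mesothelial cells (-1.52 to -0.73). With each cell thinned to 500 UMIs, 0 members were higher in fibroblasts and 0 in mesothelial cells, and 1 was lower in macrophages, 0 in endothelial and 1 in mural cells. With at least 100 UMIs required, 1 was lower in macrophages, 0 in endothelial and 1 in mural cells, since fewer members were counted. With the lymphocyte CPM subtracted, 4 members were lower in fibroblasts, and 0 were higher and 1 lower in macrophages, where Igf2r gave no value. In macrophages 1 member was higher with doublets kept, and 1 outside the resident gate. Apart from the larger UMI minimum, the cause of these changes was not tested. The subsets by cluster and resident gate were chosen after seeing the data. Classes from clusters gave no mesothelial value, since no MI cell was left in that class. No paired analysis was possible because each condition had 1 library. Depth limits the mural, mesothelial and lymphocyte values and every Igf1r ratio.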
